A study of Homo sapiens with 3 samples.

Results

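The snoRNA host noncoding RNA genes examined here are 10 long noncoding RNA genes, GAS5, SNHG1, SNHG3, SNHG5, SNHG6, SNHG7, SNHG8, SNHG12, SNHG15 and ZFAS1. They were chosen by name as hosts of small nucleolar RNAs (snoRNAs), by a rule that used no measured value but with earlier results of these data known, and all 10 were found among the 29689 gene symbols of the deposited RNAseq table. The table holds 3 libraries, each from a tumor of SUM-149, a triple-negative breast cancer (TNBC) cell line with basal-like features, grown with Matrigel in the mammary fat pads of female Nu/Nu (nude) mice. One tumor was mock treated (vehicle), one was treated with the CDK2 inhibitor dinaciclib (CDK2i) and one with the EZH2 inhibitor EPZ6438 (EZH2i), for 10 days as the labels state. Dinaciclib also inhibits other cyclin-dependent kinases, and a figure legend of the study gives GSK343, a different inhibitor of EZH2, for xenografts of this line, so which compound the EZH2i tumor received cannot be told from these sources. Nude mice lack mature T cells but keep other immune cells and supply the stroma of the tumor. The age of the mice was not given in the sources used here, and neither was the number of mice behind a library.

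A snoRNA host gene is transcribed as a long RNA that is spliced, and most snoRNAs are cut out of its introns after splicing. The snoRNAs then join proteins into small ribonucleoproteins (snoRNPs) that guide chemical modification of ribosomal RNA, box C/D snoRNAs guiding methylation and box H/ACA snoRNAs pseudouridylation. The spliced exons that remain have no conserved protein to encode, and in many host genes they are removed by nonsense-mediated decay (NMD), a pathway that needs translation of the RNA. Several host genes, GAS5 among them, belong to the 5′ TOP class, whose RNAs start with a C followed by a run of pyrimidines, as those of ribosomal proteins do, and whose translation follows growth signalling. GAS5 took its name from its accumulation in growth-arrested cells. RNAseq of this kind reads the spliced host RNA, so its level depends on both transcription and decay, and the level of the mature snoRNAs is another quantity.

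The hosts differ in what they carry. By the RefSeq gene models, 35 named snoRNA genes lay inside the 10 hosts, 25 of box C/D and 10 of box H/ACA. GAS5 held 11, SNHG1 held 8, SNHG12 held 4 and ZFAS1 held 3. SNHG3, SNHG5 and SNHG7 held 2 each, and SNHG6, SNHG8 and SNHG15 held 1 each. None of these 35 snoRNA genes was listed in the deposited table (0 of 35), so the values below are those of the host RNAs alone.

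The transcription starts of the hosts are shown because a pyrimidine run that starts with C at the first transcribed base is what defines the 5′ TOP class. Each line gives the strand's 50 bases around the RefSeq start (assembly GRCh38.p14), 20 before it and 30 from it. Capitals mark an unbroken run of C and T that begins with C at the start. The RefSeq promoter sequences used here covered 8 of the 10 hosts, without SNHG6 and SNHG15.
SNHG12, chr1:28581844-28581893, minus strand: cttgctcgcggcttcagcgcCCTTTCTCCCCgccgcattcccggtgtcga
SNHG5, chr6:85678704-85678753, minus strand: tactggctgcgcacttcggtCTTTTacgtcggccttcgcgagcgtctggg
ZFAS1, chr20:49278622-49278671, plus strand: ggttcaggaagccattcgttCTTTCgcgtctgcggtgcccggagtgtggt
SNHG7, chr9:136728155-136728204, minus strand: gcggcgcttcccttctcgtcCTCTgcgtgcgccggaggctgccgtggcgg
SNHG1, chr11:62855856-62855905, minus strand: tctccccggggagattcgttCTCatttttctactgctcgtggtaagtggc
SNHG8, chr4:118278742-118278791, plus strand: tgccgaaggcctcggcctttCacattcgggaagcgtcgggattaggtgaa
GAS5, chr1:173869016-173869065, minus strand: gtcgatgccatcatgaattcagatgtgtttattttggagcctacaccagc
SNHG3, chr1:28505923-28505972, plus strand: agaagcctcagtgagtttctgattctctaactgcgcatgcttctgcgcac

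Of these 8 starts, 6 were a C, against 15.0% of 27305 RefSeq promoters and 73.1% of 67 ribosomal protein genes. The run was 11 bases in SNHG12, 5 in SNHG5 and in ZFAS1, 4 in SNHG7, 3 in SNHG1 and 1 in SNHG8, while the RefSeq start is an A in GAS5 and a G in SNHG3. A run of 4 or more bases was found in 4 of 8 hosts, in 5.45% of all promoters, in 7.12% of the 7713 promoters of expressed genes and in 67.2% of those of ribosomal protein genes. RefSeq gives 1 start per gene in this table, and a cell may use others. The A start of GAS5 is at odds with its 5′ TOP class named above, so these starts do not settle class membership. In the promoter of 300 bases, 250 before and 50 from the start, letters were searched on both strands. CACGTG, the E-box letters bound by MYC among other factors, was found in SNHG7 alone of the 8 hosts and in 7.43% of all promoters. CCAAT was found in GAS5 and SNHG5 and in 35.7% of all promoters, and TATAAA was found in SNHG1 and SNHG7 and in 11.95%. CCGGAAG, letters of ETS family sites, was found in 0 of 8 hosts and in 10.7% of all promoters. Among the 7713 promoters of expressed genes the shares were 10.5% for CACGTG, 36.6% for CCAAT, 5.30% for TATAAA and 20.3% for CCGGAAG. None of these 4 sets of letters holds another, and a match describes the letters alone.

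The deposited values are log2 FPKM, the log2 of fragments per 1000 bases of gene, scaled to library size. Depth was estimated as the library size at which most low genes lay within 0.1% of 1 to 4 whole fragments, with exon lengths of the annotation. This put the vehicle library at 16.8 M fragments (M, mega), with 19.1 M fragments in CDK2i and 17.5 M fragments in EZH2i. At these sizes 367 of 2221, 471 of 2622 and 357 of 2101 low genes lay on whole fragments, so the depths are approximate. A value of −9 stands at the bottom of the table and appears to mean an FPKM of 0. The basal keratin KRT14 was at log2 FPKM 11.26, 12.61 and 11.31 (here and below in the order vehicle, CDK2i, EZH2i where groups are not named), and EPCAM, an epithelial surface protein, was at 6.05, 6.21 and 6.34. Of the receptors whose absence defines TNBC, ESR1 lay between −0.34 and 0.14 and PGR at or below −7.91 in all 3 tumors, and ERBB2 lay between 4.46 and 4.93. The leukocyte markers PTPRC, CD68 and CD3E summed to an FPKM of 0.0541, 0.0394 and 0. Of the fibroblast markers, COL1A1 was at log2 FPKM 3.70, 4.65 and 4.01, COL3A1 at 1.96, 0.52 and −0.11 and PDGFRB at −2.78, −2.97 and −3.48. Their summed FPKM of 17.0, 26.7 and 17.1 was mostly COL1A1. Leukocytes and stroma in these tumors come from the mouse, while the reads were mapped to the human hg19 build. Values under human symbols therefore cannot give the amount of these cells. The part of these cells in the results was not tested. In bulk tumor RNA, fewer cells of a type and less RNA per cell cannot be told apart.

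All 10 host genes were well expressed, and GAS5 and ZFAS1 led them. In the vehicle tumor their log2 FPKM ran from 4.28 in SNHG15 to 8.19 in GAS5, with a median of 6.11 against 3.27 over the 11109 expressed genes (those with a mean log2 FPKM over 1 and detected in every tumor). The 10 hosts summed to an FPKM of 1091, 412 and 648, that is 0.228%, 0.0953% and 0.160% of the summed FPKM of all genes. The sum was thus 62.3% lower in CDK2i and 40.6% lower in EZH2i than in vehicle. GAS5 and ZFAS1 together made up 52.8% of it in vehicle, 43.98% in CDK2i and 39.9% in EZH2i.

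In vehicle the order from the highest level was GAS5, ZFAS1, SNHG8, SNHG5, SNHG6, SNHG1, SNHG12, SNHG7, SNHG3 and SNHG15. GAS5 stood at rank 169 of all genes and ZFAS1 at rank 173, with 291.8 and 284.1 FPKM. In CDK2i ZFAS1 came first, at 115.9 FPKM, GAS5 second, at 65.1 FPKM, and SNHG7 and SNHG12 last, at 11.0 and 10.9 FPKM. In EZH2i GAS5 was first at 142.5 FPKM and SNHG15 last at 16.3 FPKM. With 1 library per condition there is no spread for a level, so it cannot be said which neighbors in the order differ. The gene lengths behind the FPKM are the authors' and were not given in the sources used here, which bears on the order of genes but not on the change of 1 gene between tumors.

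**Figure D1:**
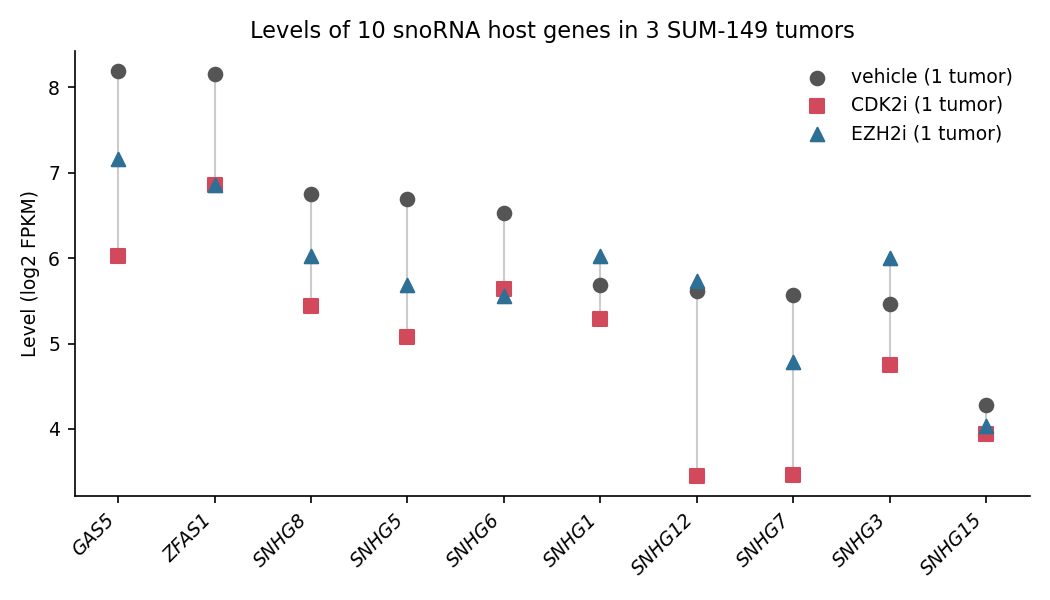
Level of each of the 10 snoRNA host genes, as log2 FPKM on the vertical axis, in the vehicle (circles), CDK2i (squares) and EZH2i (triangles) tumors, 1 library each, with genes ordered by the vehicle level and a line joining the lowest and highest value. The CDK2i value is the lowest of the 3 for 8 genes and the vehicle value the highest for 7 genes, while SNHG1, SNHG3 and SNHG12 are highest in EZH2i.

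A change is given as the difference of log2 FPKM between 2 tumors. A gene was called at a fold change over 2 where the larger value of the pair exceeded log2 FPKM 3. Single libraries leave the error of a change unknown, so no p-value was computed. As a stand-in for the error, the spread of a gene is the SD of the differences between EZH2i and CDK2i over the 200 expressed genes nearest to it in mean level. It was 0.59 to 0.83 for the 10 hosts, and it holds drug effects as well as noise. The error from counting fragments alone was smaller, with a widest half-width of the 95% exact binomial interval of 0.16 in CDK2i, 0.13 in EZH2i and 0.16 between the treated tumors. These intervals rest on approximate fragment numbers and cover counting error only.

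The first question was whether inhibiting CDK2 moved the host RNAs. All 10 were lower after CDK2i than after vehicle, with a median change of −1.30, against −0.11 over expressed genes, of which 58.0% were lower. Called lower were 6 hosts, SNHG12, GAS5, SNHG7, SNHG5, SNHG8 and ZFAS1, against 8.07% of the 6632 genes that could have passed, and 0 hosts were called higher, against 3.27%. The change was lower beyond the gene's spread for 8 hosts, all but SNHG1 and SNHG15, against 14.1% of expressed genes. SNHG3 was within its spread in 3 of 6 alternatives, at −0.53 with the libraries centred on the median expressed gene, and the count was then 7.

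SNHG12, which holds 4 snoRNAs, was at 49.2 FPKM in vehicle, 10.9 FPKM in CDK2i and 52.9 FPKM in EZH2i. It was low in the CDK2i tumor alone, 77.7% below vehicle, a change of −2.17 with a spread of 0.71. GAS5, the host with the most snoRNAs, was at 291.8 FPKM in vehicle, 65.1 FPKM in CDK2i and 142.5 FPKM in EZH2i. It was highest in vehicle and lowest in CDK2i, again 77.7% below vehicle, a change of −2.16 with a spread of 0.64. SNHG7 was at 47.4 FPKM in vehicle, 11.0 FPKM in CDK2i and 27.5 FPKM in EZH2i, and changed by −2.11 in CDK2i with a spread of 0.62. Ordered from the most negative change among the 6632 genes, SNHG12 was at place 60, GAS5 at 61 and SNHG7 at 68.

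SNHG5, which hosts a pair of box C/D snoRNAs, was at 103.5 FPKM in vehicle, 33.8 FPKM in CDK2i and 51.3 FPKM in EZH2i. Both treated tumors were below vehicle, and the change in CDK2i was −1.62 with a spread of 0.70. SNHG8, host of a box H/ACA snoRNA, was at 107.2 FPKM in vehicle, 43.5 FPKM in CDK2i and 64.98 FPKM in EZH2i, a change of −1.30 in CDK2i with a spread of 0.67. ZFAS1, host of the SNORD12 family, was at 284.1 FPKM in vehicle, 115.9 FPKM in CDK2i and 115.8 FPKM in EZH2i. As deposited it was equally low in both treated tumors, with a change of −1.29 in CDK2i and a spread of 0.67.

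The other 4 hosts were lower by less than 2-fold in CDK2i. SNHG6 was at 92.6 FPKM in vehicle, 49.97 FPKM in CDK2i and 47.2 FPKM in EZH2i, with a change of −0.89 in CDK2i and a spread of 0.59. SNHG3, host of both SNORA73 genes, was at 44.1 FPKM in vehicle, 26.9 FPKM in CDK2i and 63.9 FPKM in EZH2i, and its change of −0.71 was just past its spread of 0.63. SNHG1, which holds 8 snoRNAs, was at 51.4 FPKM in vehicle, 39.1 FPKM in CDK2i and 64.98 FPKM in EZH2i. SNHG15 was at 19.4 FPKM in vehicle, 15.4 FPKM in CDK2i and 16.3 FPKM in EZH2i. SNHG1 and SNHG15 changed by −0.40 and −0.33 in CDK2i, within their spreads of 0.73 and 0.83.

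The same question was asked of EZH2 inhibition, against the same vehicle library. In the EZH2i tumor 7 hosts were lower and 3 higher than in vehicle, with a median change of −0.75, against 0.19 over expressed genes, of which 38.5% were lower. Called lower were 3 hosts, ZFAS1 at −1.30, GAS5 at −1.03 and SNHG5 at −1.01, against 4.42% of the 7414 genes that could have passed, and 0 hosts were called higher, against 8.93%. SNHG6 at −0.97, SNHG7 at −0.78 and SNHG8 at −0.72 stayed under the fold threshold but lay beyond their spreads of 0.59, 0.62 and 0.67. Lower beyond the spread were thus 6 hosts, against 4 with equal summed FPKM and 5 with the trend on GC content and length removed. As deposited, 7.12% of expressed genes were lower beyond their spread. SNHG15 at −0.25, SNHG12 at 0.11, SNHG1 at 0.34 and SNHG3 at 0.54 lay within theirs. With the libraries centred on the median expressed gene, SNHG12 was at −0.14 in EZH2i, so its direction there depends on the scaling. GAS5 and SNHG5 lay just past the 2-fold line and were no longer called with equal summed FPKM, at −0.79 and −0.77.

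The changes in the EZH2i tumor ran with gene composition. Across 9452 expressed genes that encode no ribosomal protein, which are not independent replicates, Spearman's correlation of the change in EZH2i was −0.583 with GC content and 0.488 with transcript length, against 0.0354 and 0.0923 in CDK2i. The canonical transcripts of the hosts ranged from 39.0% GC in SNHG8 to 65.9% in SNHG7, and from 768 bases in GAS5 to 6166 in SNHG8. With this trend removed, SNHG7 changed by −0.18 in EZH2i in place of −0.78, and SNHG8 by −1.31 in place of −0.72. The hosts past 2-fold were then ZFAS1, SNHG8 and SNHG6, at −1.59, −1.31 and −1.10, and GAS5 and SNHG5 were at −0.74 and −0.85. The number called was 3 both ways, and only ZFAS1 was called both ways. Among genes that could have passed, 328 of 7414 were called lower as deposited and 127 of 6345 with the trend removed. The equal counts of hosts thus stand against different backgrounds. The corrected values rest on the GC content and length of the annotation's canonical transcripts. The gene models the authors used were not given, so these lengths may differ from theirs. The part of composition in the results was not tested. The 10 hosts remained lower in CDK2i with the trend removed, with a median of −1.26.

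**Figure D2:**
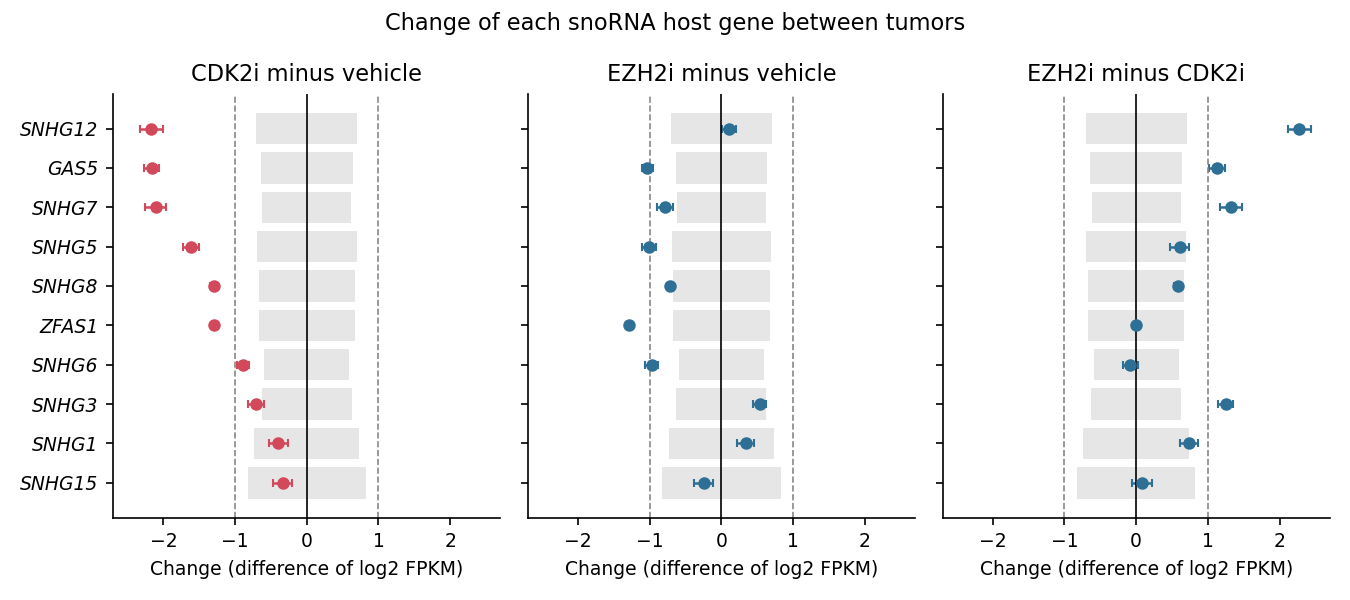
Change of each host gene as a difference of log2 FPKM on the horizontal axis, for CDK2i against vehicle, EZH2i against vehicle and EZH2i against CDK2i. Points are single differences between 2 libraries, whiskers the 95% counting interval, grey boxes plus and minus the spread and dashed lines a 2-fold change. All 10 points lie left of 0 in CDK2i, from −2.17 in SNHG12 to −0.33 in SNHG15, while in EZH2i they run from −1.30 in ZFAS1 to 0.54 in SNHG3.

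The treated tumors were also compared directly, without the vehicle library. The host RNAs were higher in EZH2i than in CDK2i for 8 of 10 genes, against 66.9% of expressed genes, with a median difference of 0.67 against 0.35. Higher beyond the spread were 4 hosts, against 26.9% of expressed genes. Called higher were 4 hosts, SNHG12 by 2.27, SNHG7 by 1.32, SNHG3 by 1.25 and GAS5 by 1.13, against 17.5% of 7394 genes, and 0 were called lower, against 6.52%. SNHG12 was 4.83-fold higher in EZH2i than in CDK2i, the widest gap of the 10, with a spread of 0.71. The spread is itself taken from the differences of this comparison. SNHG1 at 0.73, SNHG5 at 0.61 and SNHG8 at 0.58 lay within their spreads as deposited, and SNHG1 and SNHG5 lay beyond them with equal summed FPKM, at 0.83 and 0.70. With the trend on GC content and length removed SNHG8 was at −0.01 and SNHG7 at 2.07. SNHG6 at −0.08, SNHG15 at 0.08 and ZFAS1 at −0.00 were nearly level between the treated tumors as deposited, and these 3 signs changed in 2 of 6 alternatives each. With the libraries centred, SNHG6 was at −0.51, ZFAS1 at −0.43 and SNHG15 at −0.35, and with the trend removed they were at −0.34, −0.38 and −0.05. With the libraries centred on the median expressed gene, SNHG12 alone was called, at 1.84, against 6.39% of genes called higher.

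The hosts thus differed among themselves. Both comparisons with vehicle share the vehicle library, so their values are only set side by side. As deposited, ZFAS1 and SNHG6 were about as low in CDK2i as in EZH2i, at −1.29 and −1.30 for ZFAS1 and −0.89 and −0.97 for SNHG6. GAS5 and SNHG5 were lower in CDK2i, and SNHG12 was low in CDK2i and near vehicle in EZH2i. SNHG12 and SNHG3 lie close to each other on chromosome 1 (GRCh37, 28905050 to 28909644 on the minus strand and 28832492 to 28837404 on the plus strand). SNHG12 changed by −2.17 in CDK2i and SNHG3 by −0.71.

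Read against the start sequences above, the hosts with a C-led run of 4 or more bases, SNHG12, SNHG5, ZFAS1 and SNHG7, were all called in CDK2i, at −2.17, −1.62, −1.29 and −2.11. The hosts with a shorter run or none also held called genes, GAS5 at −2.16 and SNHG8 at −1.30, next to SNHG3 at −0.71 and SNHG1 at −0.40. The split depends on the cut. At 3 or more bases SNHG1, which was not called, joins the longer runs, and at 5 or more SNHG7 leaves them. GAS5 is grouped by its RefSeq start, an A, although it is named above as a 5′ TOP gene. The groups therefore describe the RefSeq starts and not membership of the class. In EZH2i the 4 hosts with the longer run were at 0.11 for SNHG12, −1.01 for SNHG5, −1.30 for ZFAS1 and −0.78 for SNHG7. These are 8 genes in single libraries, and the comparison is a description.

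Ribosomal protein genes, the main carriers of 5′ TOP starts, were set beside the hosts. Of 82 expressed ribosomal protein genes, 82 were lower in CDK2i, 29 of them called, with a median of −0.88. In EZH2i 77 were lower, 46 called, with a median of −1.02, and their share of all FPKM was 15.5%, 8.77% and 8.42%. In CDK2i 7 of the 10 hosts were below the ribosomal protein median, and in EZH2i 2 were, ZFAS1 and GAS5. The ribosomal protein median stayed below 0 in both tumors under all 6 alternatives. Between EZH2i and CDK2i it was −0.09 as deposited, −0.52 with centred libraries and 0.01 with equal summed FPKM, where the host median was 0.67, 0.24 and 0.76. Among 16 further 5′ TOP genes, such as translation factors, the median was −0.32 in CDK2i, with 13 lower and 2 called lower, and −0.32 in EZH2i, with 11 lower and 1 called lower. These medians moved with scaling, to −0.14 in CDK2i and −0.57 in EZH2i with centred libraries and to −0.08 in EZH2i with equal summed FPKM. For both lists, the background was 8.07% of genes that could have passed called lower in CDK2i and 4.42% in EZH2i. Lower by any amount were 58.0% and 38.5% of expressed genes.

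Of 9 other expressed noncoding hosts, 7 were lower in CDK2i, against 58.0% of expressed genes, and 6 in EZH2i, against 38.5%. Their medians of −0.64 and −0.47 stayed below 0 under all 6 alternatives. Against 8.07% and 4.42% of genes called lower, EPB41L4A-AS1 alone was called in each, at log2 FPKM 3.42, 2.24 and 2.37. Its call in CDK2i ended with centred libraries, at −0.99, and that in EZH2i with equal summed FPKM, at −0.80, and with a pseudocount of 1. SNHG32, listed as C6orf48, was the highest of them at 7.64, 6.94 and 7.10, and SNHG11 was at 4.05, 3.40 and 3.40. SNHG16 was at 3.13, 2.63 and 3.80, and SNHG20, listed as LINC00338, at 2.13, 0.81 and 2.47. Both were lowest in CDK2i and highest in EZH2i. SNHG10 was at 2.81, 1.52 and 2.34 and DANCR at 4.60, 4.51 and 4.18. SNHG14 was higher in both treated tumors, at 0.87, 1.70 and 2.56, and SNHG9 was lowest in EZH2i, at 2.15, 2.29 and 0.28. SNHG10, SNHG20, SNHG14 and SNHG9 stayed below log2 FPKM 3 in all tumors and so could not be called. SNHG10 and SNHG20 changed by −1.29 and −1.31 in CDK2i, and SNHG9 and SNHG14 by −1.87 and 1.69 in EZH2i.

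In CDK2i, protein-coding genes that carry snoRNAs in their introns were lower about as often as all expressed genes, of which 58.0% were lower. In EZH2i, where 38.5% of expressed genes were lower, they were lower less often. Of 26 expressed ones, 16 were lower and 10 higher in CDK2i, with a median of −0.12 that was 0.06 with centred libraries, and 7 were lower and 19 higher in EZH2i, with a median of 0.57. In CDK2i 5 were called lower, RABGGTB at −1.51, WDR43 at −1.47, EEF1B2 at −1.24, TAF1D at −1.09 and TPT1 at −1.07, and EIF4A1 was called higher at 1.08. EEF1B2 and TPT1 are also the further 5′ TOP genes called lower in CDK2i above, so they are counted in both lists. Of all genes that could have passed in CDK2i, 8.07% were called lower and 3.27% higher. In EZH2i TPT1, a 5′ TOP gene itself, was called lower at −1.04, and IPO7, WDR43 and EIF4G2 were called higher at 1.18, 1.03 and 1.02. Of all genes that could have passed in EZH2i, 4.42% were called lower and 8.93% higher. The calls of IPO7, WDR43 and EIF4G2 ended with centred libraries, at 0.93, 0.78 and 0.77, and with the trend removed, and that of TPT1 ended with equal summed FPKM, at −0.80. In CDK2i the calls of TAF1D and TPT1 ended with centred libraries, at −0.91 and −0.89, and with equal summed FPKM, and that of TAF1D also with the trend removed. EIF4A1 was no longer called in CDK2i with sums equal once ribosomal protein and mitochondrial genes were set aside. Between EZH2i and CDK2i 7 of the 26 were called higher, against 17.5% of genes that could have passed. WDR43, a ribosome biogenesis factor, was higher by the most, at 2.498.

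**Figure D3:**
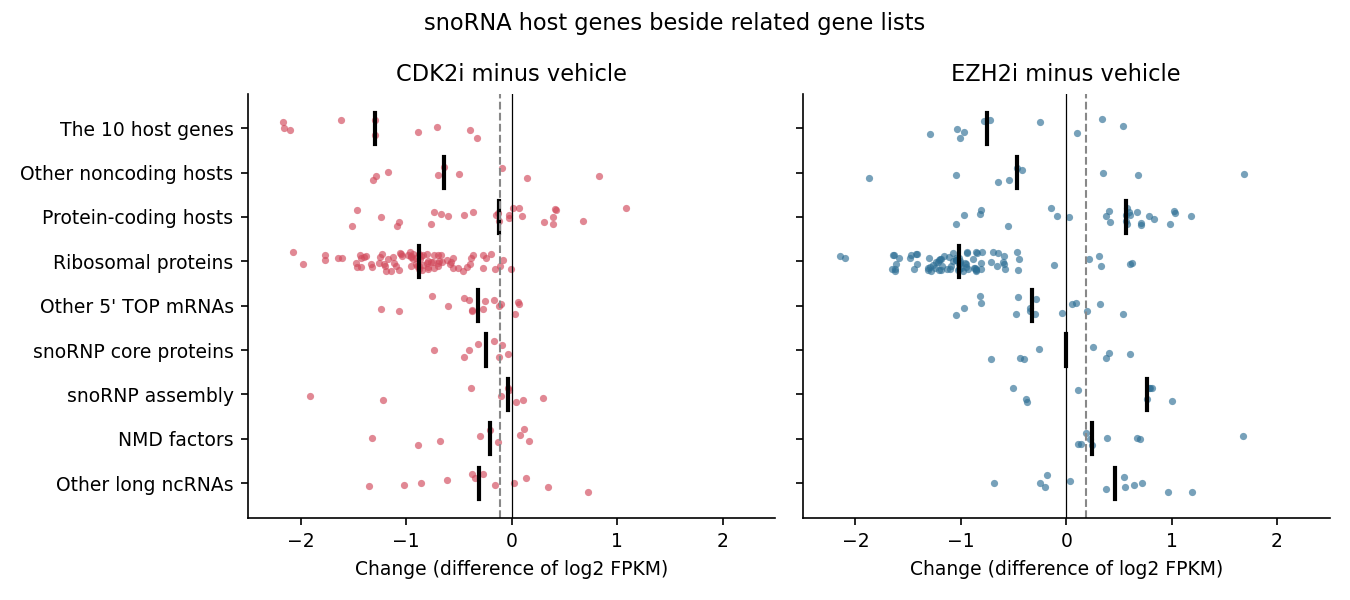
Change against vehicle, as a difference of log2 FPKM on the horizontal axis, of every expressed gene of 9 lists in CDK2i and EZH2i. Each point is 1 gene, black bars are list medians and the dashed line is the median of all expressed genes. The 10 host genes have the lowest list median in CDK2i, −1.30, and in EZH2i their median of −0.75 lies between those of ribosomal proteins, −1.02, and other noncoding hosts, −0.47.

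The machinery around snoRNAs and host RNAs was examined next. As background for each list below, 8.07% of genes that could have passed were called lower and 3.27% higher in CDK2i. In EZH2i these shares were 4.42% and 8.93%. Lower by any amount were 58.0% of expressed genes in CDK2i and 38.5% in EZH2i. Of 8 core snoRNP protein genes 0 were called against vehicle in either tumor, with medians of −0.24 in CDK2i and −0.00 in EZH2i, the latter between −0.25 and 0.33 over the alternatives. FBL, the methyltransferase of box C/D snoRNPs, was at −0.40 in both, and NOP56, a scaffold of the same particles, at −0.74 and 0.38. Of 9 snoRNP assembly genes, 6 were lower in CDK2i with 0 called, and 6 were higher in EZH2i with 1 called, ZNHIT6 at 1.01. TGS1 at −1.92 and ZNHIT3 at −1.22 in CDK2i stayed below log2 FPKM 3 in all tumors and could not be called. Of 9 NMD factor genes, 6 were lower in CDK2i with SMG9 called at −1.33, and 9 were higher in EZH2i with SMG1, the kinase that phosphorylates UPF1, called at 1.68. Between EZH2i and CDK2i, where 17.5% of genes were called higher, 4 of 9 NMD genes were called higher (SMG9 by 1.72, SMG1 by 1.52, UPF2 by 1.35 and UPF3B by 1.08) and 2 of 8 core genes (NOP56 by 1.12 and NOP58 by 1.06). Of these 6, SMG9 and SMG1 were still called with centred libraries. NOP56 and NOP58 are also in the list of coding hosts above, so their calls are counted in both lists. The call of ZNHIT6 in EZH2i ended in 4 of 6 alternatives. The NMD median in EZH2i was 0.24 as deposited and −0.01 with centred libraries, and the assembly median in CDK2i was −0.04 and 0.15. In a list of 12 further long noncoding RNAs, 8 were lower in CDK2i with a median of −0.31, and 8 higher in EZH2i with a median of 0.46. MALAT1, a nuclear RNA, was called lower in CDK2i at −1.02, and TUG1 called higher in EZH2i at 1.19. Both calls ended with centred libraries, at −0.84 and 0.94, where the list medians were −0.12 and 0.21, and MALAT1 was not called with equal summed FPKM nor TUG1 with the trend removed.

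Genes beside the hosts bear on reads that could be shared, since the sources do not state whether the libraries kept the strand. ZFAS1 (GRCh37 chromosome 20, 47894715 to 47916137) and ZNFX1 are divergent genes whose starts lie 248 bases apart, with 249 bases of exons on opposite strands in common. ZNFX1 was at log2 FPKM 2.42, 0.54 and 3.12, and ZFAS1 was at 8.15, 6.86 and 6.86. Between EZH2i and CDK2i ZNFX1 was called higher by 2.59 while ZFAS1 was level. SNHG3 and RCC1, the exchange factor of the GTPase Ran, are on the same strand with starts 37 bases apart and 242 bases of shared exons, so their reads cannot be fully told apart. RCC1 was at log2 FPKM 5.36, 5.13 and 5.65 and SNHG3 at 5.46, 4.75 and 5.998.

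SNHG1 (GRCh37 chromosome 11, 62619450 to 62623425) starts 51 bases from SLC3A2, an amino acid transporter subunit on the opposite strand, which was at 7.94, 7.73 and 7.29. SNHG8 (GRCh37 chromosome 4, 119199858 to 119206471) overlaps 2487 bases of exons of PRSS12 on the opposite strand, which was at 3.46, 3.87 and 3.10, so it was highest in CDK2i where SNHG8 was lowest. GAS5 (GRCh37 chromosome 1, 173827697 to 173838020) overlaps exons of GAS5-AS1 by 132 bases, and GAS5-AS1 was at −0.22, 0.08 and −1.02. SNHG12 and TRNAU1AP share 8 bases of exons, and TRNAU1AP was at 4.19, 3.24 and 4.19. In CDK2i TRNAU1AP changed by −0.95 and SNHG12 by −2.17.

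The remaining hosts are SNHG5 on chromosome 6 (86360209 to 86388650), SNHG15 on chromosome 7 (45022618 to 45026560), SNHG6 on chromosome 8 (67832796 to 67838633) and SNHG7 on chromosome 9 (139615818 to 139622636), all on the minus strand of GRCh37. SNHG6 overlaps exons of MCMDC2 by 1488 bases, and MCMDC2 was near the bottom of the table at −6.42, −5.02 and −4.16. SYNCRIP, an RNA-binding protein gene next to SNHG5, was at 4.35, 4.35 and 5.32. AGPAT2, a lipid synthesis gene next to SNHG7, was at 6.46, 6.64 and 5.45 and was called lower in EZH2i.

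The pair of host medians, −1.30 in CDK2i and −0.75 in EZH2i, was shared by genes of other kinds. Within a Euclidean distance of 0.25 of that pair lay 64 expressed genes that are not among the 10 hosts, 0 of them ribosomal protein genes. The nearest 5 were DNAJC17 at a distance of 0.056, ARID5A at 0.074, THAP7 at 0.076, ZNF581 at 0.081 and NAT6 at 0.086, over 2 changes in 3 libraries. SNHG8 was itself at a distance of 0.031 from the pair, and SNHG1 and SNHG3 lay farthest from it, at 1.41 each.

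**Figure D4:**
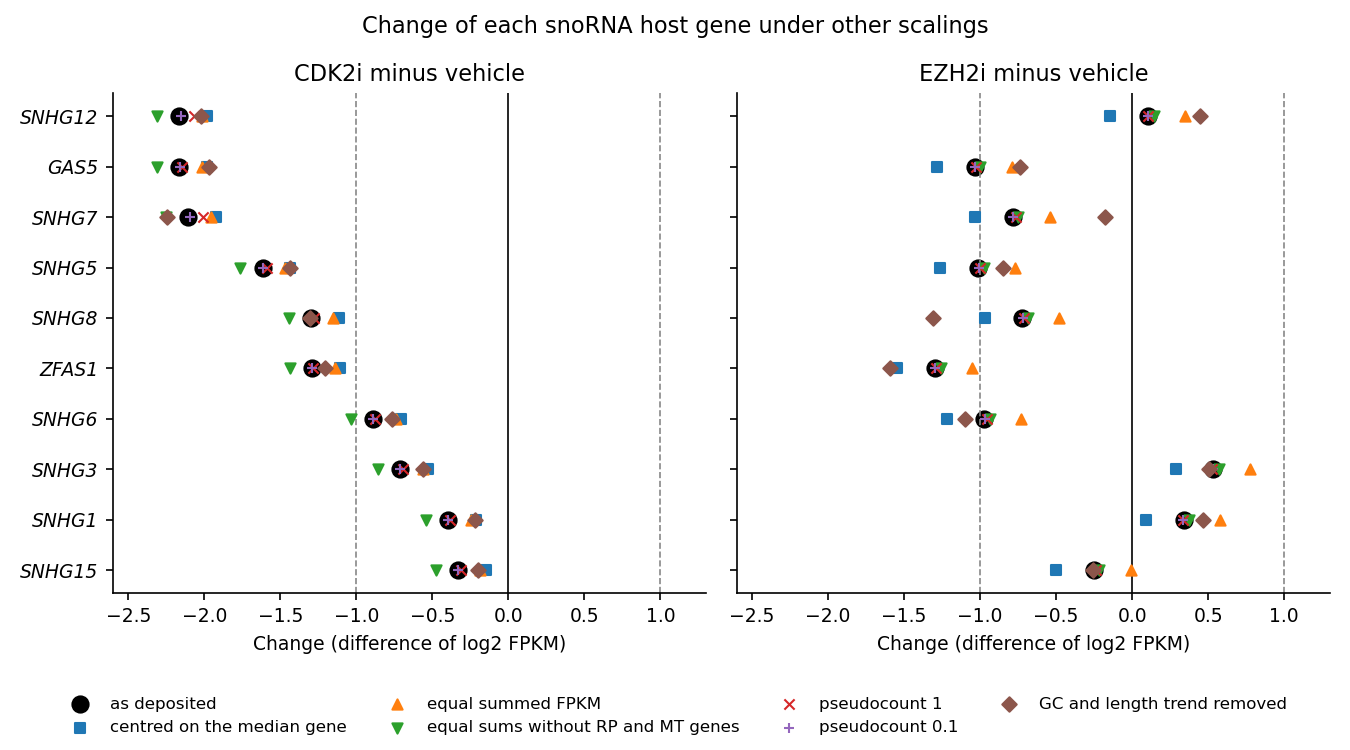
Change of each host gene against vehicle, as a difference of log2 FPKM on the horizontal axis, as deposited (black circles) and under 6 alternatives of scaling, pseudocount and trend removal (other symbols, with RP and MT for ribosomal protein and mitochondrially encoded genes). Dashed lines mark a 2-fold change. In CDK2i all 10 genes stay left of 0 in each alternative, and in EZH2i SNHG12 crosses 0 when the libraries are centred and SNHG7 moves to −0.18 with the trend removed.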

How the data were processed

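Total RNA of 3 SUM-149 xenograft tumors was sequenced, 1 library each for vehicle, CDK2i and EZH2i. The labels name CASAVA and STAR and the hg19 build, and the authors deposited log2 FPKM per gene symbol, with no counts and no replicates. Mouse reads from the stroma were, as far as the sources state, not separated. Groups came from the sample labels. The 10 host genes and all gene lists were chosen with earlier results of these data known. Changes are differences of the deposited values, with thresholds on fold (2) and expression (log2 FPKM 3). Genes named were all 10 hosts, genes of a list past both thresholds (at most 3 per direction) or its highest and lowest member, expressed noncoding hosts, genes beside or over a host (not all of them are reported here), and the 5 genes nearest to the hosts' median changes. For the coding hosts called lower in CDK2i all 5 are named, and FBL, the core and NMD genes called between the treated tumors and marker genes were named for their role after values were seen. Gene models came from GENCODE 44 on GRCh37, which gave GC content and length for 85.8% of expressed genes, and starts from RefSeq (GRCh38.p14). The trend on GC content and length was removed with polynomials of degree 3. Alternatives were 2 pseudocounts (1 and 0.1), 3 scalings, trend removal, folds of 1.5 and 3 and other expression minimums. Python 3.11.15, numpy 2.4.6, pandas 2.3.3 and SciPy 1.17.1 were used. Depth per library is given with the values, and precision beyond counting error is unknown.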

Additional observations from a re-analysis of the deposited data

How the results depend on the processing

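In CDK2i all 10 hosts stayed below vehicle under the 6 alternatives, and the median of −1.30 was −1.11 with libraries centred on the median expressed gene, −1.15 with equal summed FPKM and −1.44 with sums equal once ribosomal protein and mitochondrially encoded genes were set aside. The number called lower, 6, stayed between 4 at a fold of 3, against 2.41% of genes, and 8 at a fold of 1.5, against 18.8%. In EZH2i the median of −0.75 was −1.002 centred, −0.51 with equal sums and −0.50 after removal of the trend on GC content and length. The 3 hosts called lower became 6 at a fold of 1.5, against 12.1% of genes, and 0 at a fold of 3, against 1.08%. They became 5 centred, against 8.28%, and 1 with equal sums, against 2.25%. With sums equal once ribosomal protein and mitochondrially encoded genes were set aside, 1 was called, against 4.01%. Between EZH2i and CDK2i the median of 0.67 was 0.24 centred and 0.85 with sums equal without those genes. The 4 hosts called higher became 1 at a fold of 3, against 5.83% of genes, and 1 centred, against 6.39%. The median of all expressed genes was −0.11 in CDK2i and 0.19 in EZH2i as deposited, 0.07 and −0.06 centred, 0.04 and 0.43 with equal sums and −0.26 and 0.23 without those genes. A scaling adds 1 constant to all genes and so cannot move the hosts' median relative to it, −1.18 in CDK2i and −0.945 in EZH2i. Trend removal can, and gave −1.22 and −0.72. The split of all called genes moved with scaling too. It was 535 lower and 217 higher in CDK2i as deposited, 355 and 366 centred, 354 and 310 with equal sums and 725 and 153 without those genes, and in EZH2i 328 and 662 as deposited, 581 and 271 centred and 170 and 1334 with equal sums. The cause was not tested beyond the scaling itself. No paired analysis was possible because each condition has 1 library, and for the same reason no replicate could be left out. Depth limits the hosts little, since each has over 200 fragments per 1000 bases in every library, and the missing replicates limit every comparison.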
